A study of Homo sapiens with 12 samples.

Results

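TXNIP, ARRDC4, MLXIP, MLXIPL and MLX, a small set of genes of glucose sensing, are described here across nutrient depletion and lysosomal inhibition in Caco-2 cells. The 5 genes were chosen by name. TXNIP and ARRDC4 encode α-arrestins, and MLXIP, MLXIPL and MLX encode the transcription factors MondoA and ChREBP and their common partner. All 5 were measured among 54553 annotated genes, and all 5 passed the filter on low counts that left 18047 genes for testing. MondoA and ChREBP bind DNA as dimers with MLX. When glucose enters a cell and is phosphorylated, these dimers collect in the nucleus and occupy E-box pairs named carbohydrate response elements, which raises transcription of TXNIP and ARRDC4. TXNIP in turn holds thioredoxin and promotes the internalisation of glucose transporters, so that it acts as a brake on glucose uptake, and ARRDC4 is a related α-arrestin that also restrains glucose uptake. In intestinal epithelium ChREBP is known for the handling of dietary sugar, fructose included.

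Caco-2 is a colorectal adenocarcinoma line, labelled wild type, whose cells take on enterocyte features in culture. RNA was sequenced from 12 cultures in 4 groups of 3: depleted medium with bafilomycin A1 (BafA1), depleted medium with vehicle, rich medium with BafA1, and rich medium with vehicle. Depleted medium was DMEM with 0.1 g/L glucose, 0.2 mM glutamine and 1% serum, and rich medium was EMEM with 1 g/L glucose, 2 mM glutamine and 20% serum, so glucose, glutamine, serum and the base medium changed together and cannot be told apart. Both media held pyruvate and non-essential amino acids. BafA1, which blocks the V-ATPase and so raises the pH of lysosomes, was given at 100 nM for 48 h, the same time as the depletion. The comparisons ask what loss of lysosomal acidity does in each medium, what depletion does with and without BafA1, and whether the BafA1 difference is the same in both media.

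The libraries held 12969814 to 51649213 reads assigned to genes. Rich vehicle replicate 1 was the shallowest, and the other 11 libraries held at least 33859998 reads. Its rank correlations across genes were 0.966 and 0.967 with the other rich vehicle libraries and lower with all other libraries. Rich BafA1 replicate 3 had rank correlations across genes of 0.985 and 0.985 with the other libraries of its group, against 0.985 to 0.990 with the depleted vehicle libraries, each of which exceeded both values within its group, so it stood nearer to another group than to its own. Markers of colon epithelium summed to 3493 to 3931 CPM (TMM-scaled counts relative to library size) in depleted BafA1 cells, 5552 to 6561 CPM in depleted vehicle cells, 6487 to 8078 CPM in rich BafA1 cells and 7537 to 10553 CPM in rich vehicle cells. None of these 13 markers was at 0 in all libraries, and the same held for the markers of fibroblasts, leukocytes and endothelium. The summed markers of fibroblasts reached at most 55.9 CPM, of leukocytes 24.8 CPM and of endothelium 14.1 CPM. The epithelial sum was lower in depleted than in rich medium with either treatment, and in depleted medium it was lower with BafA1 than with vehicle, without overlap. There 4 of 12 tested epithelial markers fell, where 5.91% of all tested genes fell, in the comparison in which TXNIP was called higher. With depletion under BafA1, 9 of 12 fell, against 13.6% of all genes. BafA1 in rich medium raised 3 and lowered 2, where 6.15% of all tested genes rose and 4.78% fell. Depletion with vehicle raised 2 and lowered 3, where 15.5% of all tested genes rose and 15.4% fell. The part of these markers in the results was not tested. In bulk RNA, fewer cells of a type and less RNA per cell cannot be told apart.

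The sequences upstream of the target genes are shown because they carry the E-boxes through which MondoA, ChREBP and MLX are known to act. RefSeq (GRCh38.p14) had an entry for each of the 5 genes. TXNIP lies on chromosome 1 at 145992435 to 145996579, minus strand, ARRDC4 on chromosome 15 at 97960703 to 97973833, plus strand, and MLX on chromosome 17 at 42567100 to 42573203, plus strand. In the 250 bases before the TXNIP start and before the ARRDC4 start, and in a stretch of 46 bases before the MLX start, capitals mark the motif matches described next, and each sequence is read on the strand of its gene. The MLX stretch shows the E-box of the shared partner itself.
TXNIP chr1:145996580-145996829: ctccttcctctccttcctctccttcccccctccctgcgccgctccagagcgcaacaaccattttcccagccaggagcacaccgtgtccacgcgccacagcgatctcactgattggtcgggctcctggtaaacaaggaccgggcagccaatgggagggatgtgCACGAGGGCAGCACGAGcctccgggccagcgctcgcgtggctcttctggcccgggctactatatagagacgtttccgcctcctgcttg
ARRDC4 chr15:97960453-97960702: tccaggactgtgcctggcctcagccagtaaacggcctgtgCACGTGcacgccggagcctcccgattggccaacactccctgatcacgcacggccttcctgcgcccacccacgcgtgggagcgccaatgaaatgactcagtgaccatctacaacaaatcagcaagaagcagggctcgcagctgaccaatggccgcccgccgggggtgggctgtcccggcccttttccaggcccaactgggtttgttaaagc
MLX chr17:42567030-42567075: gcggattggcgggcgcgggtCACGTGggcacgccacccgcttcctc

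In the TXNIP window the capitals mark a match, spacer included, to a relaxed carbohydrate response element, searched on both strands as CACGNG, then 5 bases of any kind, then CACGNG, at 88 to 72 bases before the start. RefSeq holds another TXNIP start site, and its window, chr1:145995745-145995994, held none of the 3 motifs searched. The relaxed element was rare, with a match in 16 of 35116 RefSeq promoters, or 0.0456%. ARRDC4 held no such pair in this window, but had a single E-box CACGTG at 210 to 205 bases before its start, and MLX had one at 50 to 45 bases. CACGTG was found in 6.34% of the promoters. CCAAT, the box that NF-Y binds, was found on either strand in 32.0% of the promoters. TXNIP held it at 140 to 136 bases before the start on the opposite strand and at 105 to 101 bases on its own. It was not particular to TXNIP. ARRDC4 held it at 187 to 183, 128 to 124 and 67 to 63 bases before the start, MLXIP at 76 to 72 and MLX at 66 to 62. Neither the E-box nor the pair was found in the windows of MLXIP and MLXIPL. MLXIP lies on chromosome 12 at 122078756 to 122147344 of the plus strand, and MLXIPL on chromosome 7 at 73593202 to 73647907 of the minus strand. The MLXIPL window, chr7:73624523-73624772, precedes a start site inside that span, and the bases before the outer end of the gene were not searched. A match is a string of letters in a window and says nothing of occupancy in these cells.

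TXNIP fell steeply under nutrient depletion, with the largest change of the 5 genes in both depletion comparisons. In CPM over replicates 1, 2 and 3, TXNIP measured 9.03, 9.80 and 9.62 in depleted BafA1 cells, 3.03, 4.10 and 3.71 in depleted vehicle cells, 59.4, 50.7 and 19.2 in rich BafA1 cells, and 22.2, 37.6 and 25.3 in rich vehicle cells. Every depleted library lay below every rich library, and both depleted groups were tight while the rich BafA1 group was wide, with its replicate 3 below all 3 rich vehicle libraries. With vehicle, TXNIP averaged 3.61 ± 0.544 CPM in depleted medium against 28.4 ± 8.13 CPM in rich medium (SD, n = 3 each), a 7.90-fold lower level with a log2 fold change of -2.98 (SE 0.34, edgeR quasi-likelihood test, adjusted p = 4.47e-05). Under BafA1 it averaged 9.49 ± 0.400 CPM in depleted medium against 43.1 ± 21.2 CPM in rich medium, 4.55-fold lower (log2 fold change -2.18, SE 0.32, adjusted p = 0.000296 by the same edgeR test).

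ARRDC4, the other glucose-responsive α-arrestin, also fell under depletion, at a level close to the lower end of what these libraries measure. It reached 0.736, 0.734 and 0.536 CPM in depleted BafA1 cells, 0.366, 0.447 and 0.865 CPM in depleted vehicle cells, 2.55, 1.45 and 1.70 CPM in rich BafA1 cells, and 4.84, 2.84 and 3.17 CPM in rich vehicle cells. The depleted libraries all lay below the rich ones, and the values rested on 16 to 40 reads per depleted library and 64 to 121 reads per rich library. With vehicle, ARRDC4 averaged 0.559 ± 0.268 CPM in depleted medium against 3.61 ± 1.07 CPM in rich medium (SD, n = 3 each), 6.42-fold lower (log2 fold change -2.68, SE 0.42, edgeR adjusted p = 0.00031). Under BafA1 it averaged 0.669 ± 0.115 CPM in depleted medium against 1.90 ± 0.576 CPM in rich medium, 2.82-fold lower (log2 fold change -1.50, SE 0.40, edgeR adjusted p = 0.0142). That last call was lost without depleted BafA1 replicate 3 (adjusted p = 0.061) and without rich BafA1 replicate 1 (adjusted p = 0.082).

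With BafA1, of this pair of α-arrestins only TXNIP in depleted medium passed the test. There TXNIP was 2.63-fold higher with BafA1, at 9.49 ± 0.400 CPM against 3.61 ± 0.544 CPM with vehicle (log2 fold change 1.40, SE 0.33, edgeR adjusted p = 0.013), and the 3 BafA1 libraries lay above the 3 vehicle libraries. The call was lost without depleted vehicle replicate 1 (log2 fold change 1.28, adjusted p = 0.067). In rich medium TXNIP averaged 43.1 ± 21.2 CPM with BafA1 against 28.4 ± 8.13 CPM with vehicle, with overlapping groups and no call (log2 fold change 0.60, SE 0.31, adjusted p = 0.235). Without rich BafA1 replicate 3 the log2 fold change was 0.95 and passed (adjusted p = 0.023). With all 12 libraries and no filter on low counts it was 0.60 and also passed, narrowly (adjusted p = 0.048). The difference between the media in the BafA1 response of TXNIP was 0.80 on the log2 scale (SE 0.45, adjusted p = 0.316), which was not called.

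ARRDC4 did not pass the test for BafA1 in either medium. In rich medium its 3 BafA1 libraries lay below its 3 vehicle libraries, at 1.90 ± 0.576 CPM against 3.61 ± 1.07 CPM, with a log2 fold change of -0.91 (SE 0.39, edgeR adjusted p = 0.147). In depleted medium the groups overlapped (log2 fold change 0.27, SE 0.42, adjusted p = 0.747). The medium by BafA1 difference for ARRDC4 was 1.18 (SE 0.57, adjusted p = 0.236). Whether ARRDC4 and TXNIP differ in their response to BafA1 was not tested.

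**Figure D1:**
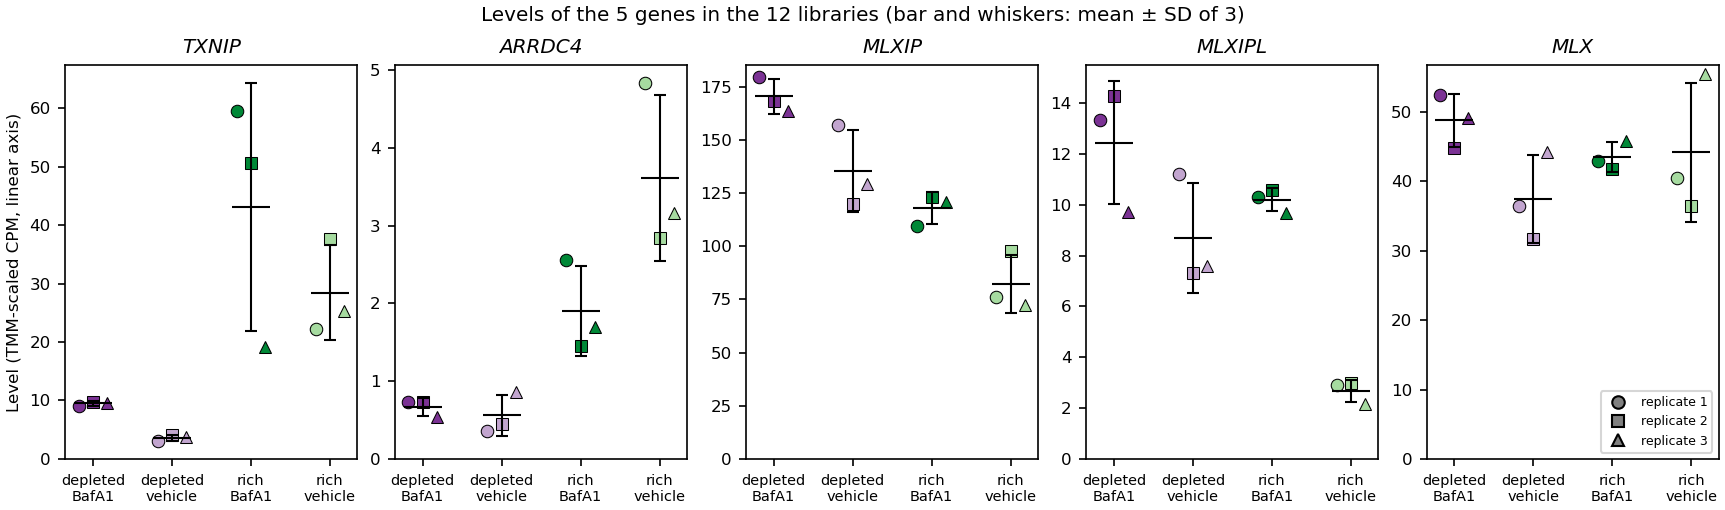
Level of each of the 5 genes in each library (TMM-scaled CPM, linear axis from 0), by group, with a point per library, its shape giving the replicate, and a bar with whiskers at the group mean ± SD (n = 3). Every depleted library lies below every rich one for TXNIP and for ARRDC4, while the rich vehicle libraries are the lowest for MLXIPL.

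Under depletion with vehicle, where the α-arrestins fell, MLXIPL and MLXIP rose. MLXIPL, which encodes ChREBP, was lowest in rich medium with vehicle and higher in each of the other 3 groups. In CPM it measured 13.3, 14.3 and 9.71 in depleted BafA1 cells, 11.2, 7.32 and 7.57 in depleted vehicle cells, 10.3, 10.6 and 9.69 in rich BafA1 cells, and 2.9, 2.97 and 2.17 in rich vehicle cells. In CPM the rich vehicle libraries, with 39 to 112 reads, stood apart below all 9 others, among which the groups overlapped. With vehicle, MLXIPL averaged 8.69 ± 2.17 CPM in depleted medium against 2.68 ± 0.442 CPM in rich medium (SD, n = 3 each), 3.26-fold higher (log2 fold change 1.71, SE 0.24, edgeR adjusted p = 0.000144). In rich medium it averaged 10.2 ± 0.459 CPM with BafA1 against 2.68 ± 0.442 CPM with vehicle, 3.82-fold higher (log2 fold change 1.93, SE 0.24, adjusted p = 0.000393 by edgeR). These comparisons share the 3 rich vehicle libraries, so they are not independent of each other. In the deposited TPM, without TMM scaling, the ratios of group means were 2.05 for depletion and 2.46 for BafA1. Rich vehicle replicate 1, at 2.309 TPM, lay above depleted vehicle replicate 2, at 2.175 TPM, so those groups overlapped in TPM.

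Within depleted medium BafA1 gave no call for MLXIPL, and within BafA1 depletion gave none. In depleted medium it averaged 12.4 ± 2.41 CPM with BafA1 against 8.69 ± 2.17 CPM with vehicle (log2 fold change 0.52, SE 0.23, edgeR adjusted p = 0.16). Under BafA1 it averaged 12.4 ± 2.41 CPM in depleted medium against 10.2 ± 0.459 CPM in rich medium (log2 fold change 0.29, SE 0.23, adjusted p = 0.392). The test of the difference itself passed: the BafA1 response of MLXIPL in depleted medium was lower than that in rich medium by a log2 difference of -1.42 (SE 0.33, edgeR adjusted p = 0.0223). This call was lost without depleted BafA1 replicate 3 (-1.27, adjusted p = 0.065) and without depleted vehicle replicate 1 (-1.20, adjusted p = 0.077).

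MLXIP, which encodes MondoA, rose by less. Its level was 180, 168 and 164 CPM in depleted BafA1 cells, 157, 120 and 129 CPM in depleted vehicle cells, 109, 123 and 121 CPM in rich BafA1 cells, and 76.3, 97.9 and 72.3 CPM in rich vehicle cells. The depleted BafA1 libraries were the highest and the rich vehicle libraries the lowest, and the groups between them overlapped. With vehicle, MLXIP was 1.65-fold higher in depleted medium, at 136 ± 19.3 CPM against 82.2 ± 13.8 CPM in rich medium (log2 fold change 0.72, SE 0.15, edgeR adjusted p = 0.00275). In the deposited TPM, without TMM scaling, the ratio of group means was only 1.20 there. Under BafA1 it was 1.45-fold higher in depleted medium, at 170 ± 8.18 CPM against 118 ± 7.45 CPM (log2 fold change 0.53, SE 0.15, adjusted p = 0.0201 by edgeR), a call that was lost without depleted BafA1 replicate 1 (adjusted p = 0.069) or 2 (0.056) and without rich BafA1 replicate 1 (0.095) or 2 (0.057).

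The BafA1 call of MLXIP in rich medium was the least firm of the members. It averaged 118 ± 7.45 CPM with BafA1 against 82.2 ± 13.8 CPM with vehicle, with no overlap (log2 fold change 0.52, SE 0.15, edgeR adjusted p = 0.0426). Leaving out any 1 of the 12 libraries other than rich vehicle replicate 2 lost the call, with log2 fold changes of 0.44 to 0.67 over all 12 and adjusted p-values of up to 0.12. In depleted medium the BafA1 libraries again lay above the vehicle libraries without a call (log2 fold change 0.33, SE 0.15, adjusted p = 0.188). The difference between media was -0.19 (SE 0.22, adjusted p = 0.657). In the deposited TPM, without TMM scaling, the ratio of group means for BafA1 in rich medium was only 1.10.

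MLX, the partner that both sensors need for DNA binding, passed no test. It measured 52.5, 44.8 and 49.2 CPM in depleted BafA1 cells, 36.4, 31.7 and 44.2 CPM in depleted vehicle cells, 42.9, 41.8 and 45.9 CPM in rich BafA1 cells, and 40.6, 36.5 and 55.5 CPM in rich vehicle cells. The groups overlapped in every comparison except BafA1 against vehicle in depleted medium, where the BafA1 libraries were all higher (log2 fold change 0.38, SE 0.17, edgeR adjusted p = 0.176). The other log2 fold changes were -0.24 (SE 0.17) for depletion with vehicle, 0.17 (SE 0.17) for depletion under BafA1 and -0.02 (SE 0.17) for BafA1 in rich medium, where the sign turned without rich BafA1 replicate 2 (0.01) or rich vehicle replicate 3 (0.18). MLX overlaps PSMC3IP on the opposite strand, and MLXIPL contains a sense intronic noncoding gene. The library kit keeps strand, but whether reads were assigned by strand is not known, and the reads of MLX and PSMC3IP may not be fully separated.

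Counted together, 2 members rose and 2 fell under depletion with vehicle, where 30.9% of all tested genes were called, 15.5% as higher and 15.4% as lower. Under BafA1, depletion gave 1 member higher and 2 lower, against 24.1% of all genes called. BafA1 in rich medium called 2 members, both higher, where 10.9% of genes were called and 6.15% rose. In depleted medium BafA1 called 1 member, which rose, where 11.4% of genes were called, 5.5% as higher and 5.91% as lower. The test of the difference between media called 1 member, MLXIPL, as lower, against 6.18% of genes, 2.35% higher and 3.83% lower. Groups of 3 did not overlap for 41.2% of all tested genes under depletion with vehicle (18.2% lower in depleted medium) and 47.1% under depletion with BafA1 (23.8% lower). For BafA1 the share was 26.0% in rich medium and 39.9% in depleted medium, where 19.8% were higher and 20.1% lower with BafA1. The median log2 fold change of all tested genes lay between -0.05 and 0.04 in the 5 comparisons.

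**Figure D2:**
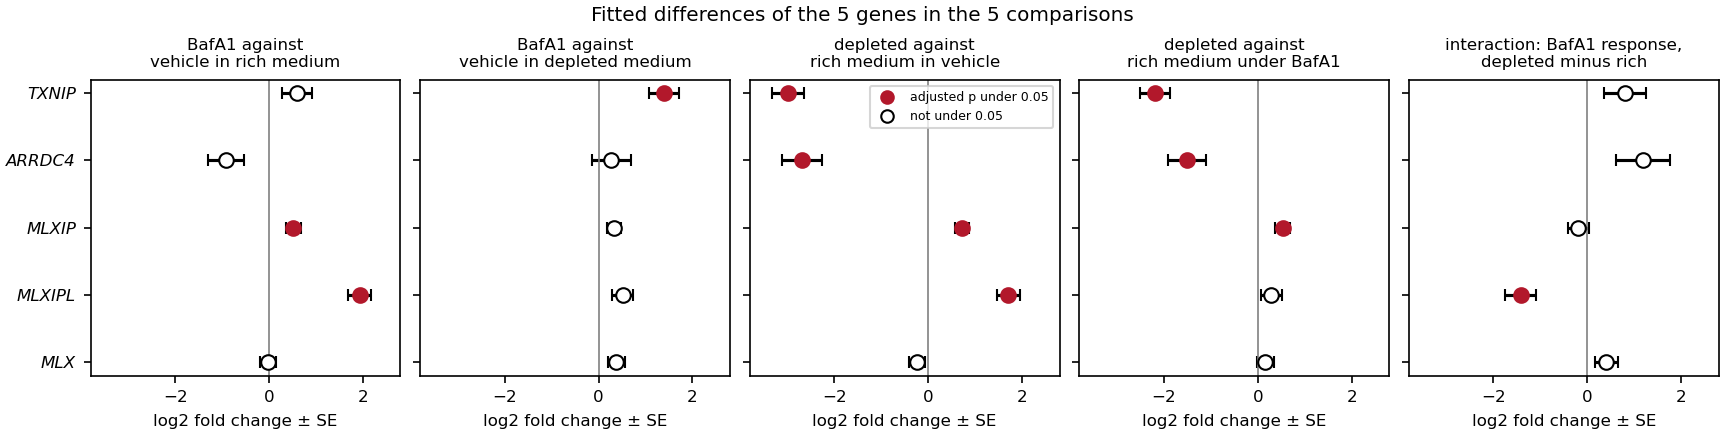
Log2 fold change with its standard error for each of the 5 genes in the 4 pairwise comparisons and for the medium by BafA1 difference, from 1 edgeR fit of 12 libraries, with filled points where the adjusted p is under 0.05. TXNIP and ARRDC4 lie far below 0 in both depletion comparisons, and MLXIPL lies near 1.93 and 1.71 in the comparisons that share rich vehicle cells.

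Compared per length, in TPM (the deposited length-scaled abundance), the members differed in level by over an order of magnitude. In rich vehicle cells MLX averaged 26.9 TPM, MLXIP 15.1 TPM, TXNIP 14.1 ± 6.61 TPM, MLXIPL 1.43 TPM and ARRDC4 1.22 TPM. In depleted vehicle cells MLX and MLXIP averaged 18.5 and 18.1 TPM, MLXIPL 2.92 TPM, TXNIP 1.38 ± 0.0672 TPM and ARRDC4 0.139 TPM. TXNIP thus stood near MLXIP in rich vehicle cells and below MLXIPL in depleted vehicle cells.

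Ratios of TPM within a library need no scaling between libraries. MondoA transcripts outnumbered those of its paralog ChREBP in every library. The MLXIP to MLXIPL ratio was 5.81, 4.78 and 6.84 in depleted BafA1 cells, 5.64, 6.76 and 6.70 in depleted vehicle cells, 4.24, 4.78 and 5.29 in rich BafA1 cells, and 7.73, 13.8 and 14.4 in rich vehicle cells. It was higher in all 3 rich vehicle libraries than in any other library, and the lowest of them, replicate 1, rested on 39 reads of MLXIPL and on a shorter length estimate for that gene of 2508 bases, against 3229 to 3387 bases elsewhere. The ratio of MLX to the sum of MLXIP and MLXIPL was 0.870, 0.804 and 1.01 in depleted BafA1 cells, 0.726, 0.848 and 1.13 in depleted vehicle cells, 1.19, 1.04 and 1.17 in rich BafA1 cells, and 1.63, 1.25 and 2.53 in rich vehicle cells. The partner exceeded the summed sensors in all 6 rich libraries and in 2 of 6 depleted ones. For the targets, TXNIP exceeded ARRDC4 by 6.57 to 28.1 times in depleted libraries and by 6.79 to 53.1 times in rich ones, with overlap between the media. Within depleted medium this ratio was 18.9, 20.9 and 28.1 with BafA1 against 12.5, 14.1 and 6.57 with vehicle, with no overlap. Those values rest on 16 to 40 reads of ARRDC4. Within rich medium the ratio was 36.4, 53.1 and 17.4 with BafA1 against 6.79, 20.6 and 12.2 with vehicle. There the groups overlapped through rich BafA1 replicate 3.

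**Figure D3:**
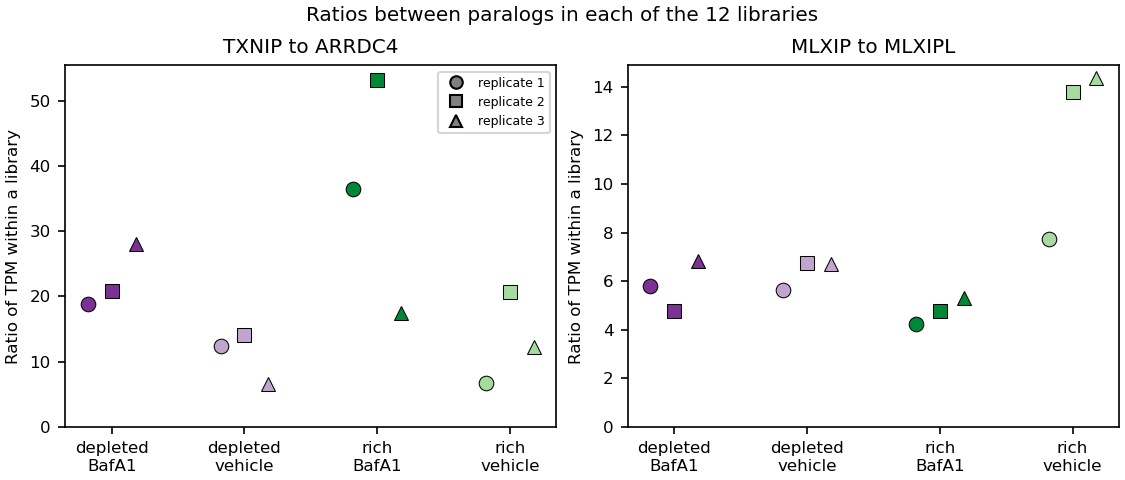
Ratio of TPM within each library for TXNIP over ARRDC4 and for MLXIP over MLXIPL, by group, with a point per library, its shape giving the replicate. The 3 rich vehicle libraries, at 7.73 to 14.4, are the highest for MLXIP over MLXIPL. For TXNIP over ARRDC4 the BafA1 libraries lie above the vehicle libraries in depleted medium, and the groups overlap in rich medium.

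The remaining α-arrestins were set beside TXNIP and ARRDC4. Of 6 family genes, 5 were tested, and ARRDC5, which had no reads, was not. Under depletion with vehicle TXNIP and ARRDC4 fell, where 15.4% of all tested genes fell and 15.5% rose. No gene of the family rose there, by edgeR, at an unadjusted p under 0.05 or by DESeq2. ARRDC3, which traffics adrenergic receptors, had log2 fold changes of 0.23 for depletion with vehicle, -0.08 for depletion under BafA1, -0.09 for BafA1 in rich medium and -0.41 for BafA1 in depleted medium (edgeR adjusted p = 0.055 for that last comparison, which passed in 8 of the 19 other settings). ARRDC2 had 0.41, 0.33, 0.47 and 0.39 in the same order, none of them called. ARRDC1 was not called in any comparison. In depleted medium ARRDC1 measured 24.2 to 27.1 CPM with BafA1 against 32.6 to 36.7 CPM with vehicle. Its groups did not overlap there, as for 20.1% of all tested genes that were lower with BafA1. The difference in response between TXNIP and these relatives was not tested.

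Genes of the thioredoxin system, which TXNIP meets by binding thioredoxin, were called mostly in 1 direction under depletion. With vehicle, 7 of its 11 genes fell and 4 were not called, with a median log2 fold change of -0.69 against 0.04 for all genes. Of all tested genes 15.4% fell there. TXN, thioredoxin 1, averaged 74.5 CPM in depleted cells against 201 CPM in rich cells (log2 fold change -1.44, SE 0.25, edgeR adjusted p = 0.0006). PRDX1, a peroxiredoxin that thioredoxin keeps reduced, averaged 142 CPM in depleted cells against 388 CPM in rich cells (log2 fold change -1.45), and TXNRD1, the cytosolic thioredoxin reductase, fell by 0.84 on the log2 scale. PRDX4, a peroxiredoxin of the endoplasmic reticulum, fell by 0.98, a call lost without depleted vehicle replicate 1 (-0.78) or 3 (-0.94) or rich vehicle replicate 3 (-0.67). Under BafA1, 5 of 11 fell with depletion, with TXN at -0.99 and PRDX1 at -1.35, and the count was 2 without rich BafA1 replicate 1 or 2 and 3 without depleted BafA1 replicate 1 or 2. BafA1 in rich medium called 1 gene of the list, TXN, at 111 CPM with BafA1 against 201 CPM with vehicle (log2 fold change -0.86, SE 0.24, adjusted p = 0.035), a call lost in 6 of the 12 fits that left out 1 library, among them those without rich BafA1 replicate 3 (-0.77, adjusted p = 0.138) and without rich vehicle replicate 3 (-0.52, adjusted p = 0.127). BafA1 in depleted medium called 0 of the 11 by edgeR and 0 by DESeq2, with 1 higher and 1 lower at an unadjusted p under 0.05. Over all genes, 13.6% fell with depletion under BafA1, 4.78% fell with BafA1 in rich medium, and 5.5% rose and 5.91% fell with BafA1 in depleted medium.

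Among genes of glucose entry and phosphorylation, the steps that supply the sensors' signal, directions were mixed. Of 17 tested genes, 4 rose and 6 fell under depletion with vehicle (median log2 fold change -0.46). The shares over all tested genes were 15.5% and 15.4%. SLC2A1, which encodes the transporter GLUT1 that TXNIP removes from the surface, averaged 356 CPM in depleted cells against 1523 CPM in rich cells (log2 fold change -2.10, SE 0.31, edgeR adjusted p = 0.00022). HK2, an inducible hexokinase, averaged 36.4 CPM in depleted cells against 71.1 CPM in rich cells (-0.96). HKDC1, a hexokinase-related protein, rose to 52.7 CPM in depleted cells, against 20.3 CPM in rich cells (1.38), and SLC2A10, encoding GLUT10, to 17.5 CPM against 5.15 CPM (1.77). Under BafA1 depletion raised 3 and lowered 4 of the 17, with SLC2A1 at 187 CPM in depleted cells against 1632 CPM in rich cells (-3.12) and SLC2A3, encoding GLUT3, at 637 CPM against 4278 CPM (-2.75). Over all genes 10.5% rose and 13.6% fell there.

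For BafA1, in depleted medium 3 of 17 rose and 3 fell, or 5 fell without rich vehicle replicate 1. Over all genes 5.5% rose and 5.91% fell there. HK2 was at 86.0 CPM with BafA1 against 36.4 CPM with vehicle (log2 fold change 1.24) and SLC2A3 was at 637 CPM against 2516 CPM (-1.98). SLC2A2, encoding GLUT2, a known ChREBP target, had 0.80 CPM with BafA1 against 3.75 CPM with vehicle (-2.23). In rich medium 2 rose and 1 fell, where 6.15% of all genes rose and 4.78% fell. HKDC1 had 56.9 CPM with BafA1 against 20.3 CPM with vehicle (1.49) and SLC2A2 a log2 fold change of -2.0, a call that was lost without rich BafA1 replicate 1 (-1.74) or 2 (-1.79) or rich vehicle replicate 1 (-1.28).

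A list of 28 genes known as ChREBP or MondoA targets, TXNIP and ARRDC4 included, had 23 tested members. Under depletion with vehicle 9 fell and 3 rose, with a median log2 fold change of -0.65. Over all tested genes 15.4% fell and 15.5% rose, so the 3 that rose were near that share. FGF21, given below, was among the 3. ACACB, a carboxylase of fatty acid metabolism in the list, averaged 58.2 CPM in depleted vehicle cells against 20.6 CPM in rich vehicle cells. Beside the α-arrestins, those that fell included ELOVL6, a fatty acid elongase, at 15.9 CPM in depleted cells against 51.5 CPM in rich cells (-1.69), KLF10, a glucose-responsive repressor, at 13.0 against 35.8 CPM (-1.46), and FASN, fatty acid synthase, at 468 against 1006 CPM (-1.10). Several of these lipid synthesis genes are also targets of SREBP, and the list cannot tell these factors apart. Under BafA1 depletion lowered 9 and raised 2 of the 23, or raised 1 without rich BafA1 replicate 1 (median -0.32), with KLF10 at -1.55. Over all genes 13.6% fell and 10.5% rose there, so the 2 that rose were near that share.

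In the same list, BafA1 raised 5 and lowered 1 gene in depleted medium (median log2 fold change 0.27), TXNIP among those that rose, and 2 rose without depleted vehicle replicate 1, 3 without depleted BafA1 replicate 2 or depleted vehicle replicate 3. BHLHE41, a clock-linked repressor, had 2.71 CPM with BafA1 against 0.57 CPM with vehicle there (2.23). In rich medium 4 rose and 1 fell (median 0.37), and 2 rose without rich BafA1 replicate 3. The shares over all genes were 5.5% higher and 5.91% lower with BafA1 in depleted medium, and 6.15% and 4.78% in rich medium. The 1 that fell in rich medium was near that share. The number that fell ranged from 0 without rich BafA1 replicate 1 or 2 or rich vehicle replicate 1 to 2 without rich vehicle replicate 3 and 3 without rich vehicle replicate 2. BHLHE40, the paralog of BHLHE41, had 71.9 CPM with BafA1 against 14.6 CPM with vehicle (2.29), while PNPLA3, a lipid droplet protein, rose by a log2 fold change of 1.25 in a call lost in 10 of the 12 fits that left out 1 library (0.91 to 1.81, adjusted p up to 0.187). FGF21, a hormone induced by several stresses and picked out after its values were seen, had 21, 23 and 30 reads in depleted BafA1 cells, 20, 12 and 15 in depleted vehicle cells, 3, 7 and 28 in rich BafA1 cells and 0 in each rich vehicle library. It is called in 2 comparisons against those libraries, and no fold is given because it would depend on the prior count. PKLR and G6PC1, classical ChREBP targets of liver, did not pass the filter on low counts.

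MLXIP, MLXIPL and MLX belong to the wider MYC, MAX and MXD network of E-box factors, in which MXD proteins and MNT oppose MYC. Of its 13 genes, all tested, 7 rose and 1 fell under depletion with vehicle (median log2 fold change 0.66), and 6 rose with BafA1 in rich medium (median 0.52). Over all genes 15.5% rose and 15.4% fell with depletion, and 6.15% rose with BafA1 in rich medium. MLXIP and MLXIPL are among the genes that rose in both counts. MXD4, a repressor, had the strongest rise of the network under depletion with vehicle, at 53.7 CPM in depleted cells against 12.2 CPM in rich cells (2.13, SE 0.19). With BafA1 in rich medium MXD4 reached 43.2 CPM against 12.2 CPM with vehicle (1.81), and MXD1 40.8 CPM against 15.9 CPM (1.37). MYC was the gene that fell under depletion with vehicle, at 54.6 CPM in depleted cells against 125 CPM in rich cells (-1.19). MYCL, a relative of MYC, rose there to 12.1 CPM in depleted cells, against 4.75 CPM in rich cells (1.33). MAX, the common partner of MYC and MXD, rose by 0.57 there, a call lost without depleted vehicle replicate 1 (0.54) or 3 (0.48) or rich vehicle replicate 1 (0.41) or 2 (0.52).

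In depleted medium BafA1 raised 4 and lowered 1 of the 13, or lowered 2 without rich vehicle replicate 1 (median log2 fold change 0.37). MAX had 104 CPM with BafA1 against 54.9 CPM with vehicle (0.92), MXD1 62.3 CPM against 32.5 CPM (0.94), and MYCN, a MYC relative, 6.98 CPM against 29 CPM (-2.05). Under BafA1 depletion raised 6 and lowered 2 (median 0.35), or raised 3 without rich BafA1 replicate 2, with MYC at -1.29, MYCN at -2.08 and MNT at 0.86. The difference between media in the BafA1 response was negative and called for 3 of the 13, MLXIPL at -1.42, MXD4 at -1.45 and MYCN at -2.30. Over all genes, 5.5% rose and 5.91% fell with BafA1 in depleted medium. Depletion under BafA1 raised 10.5% and lowered 13.6%, and 3.83% had a negative called difference between media.

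**Figure D4:**
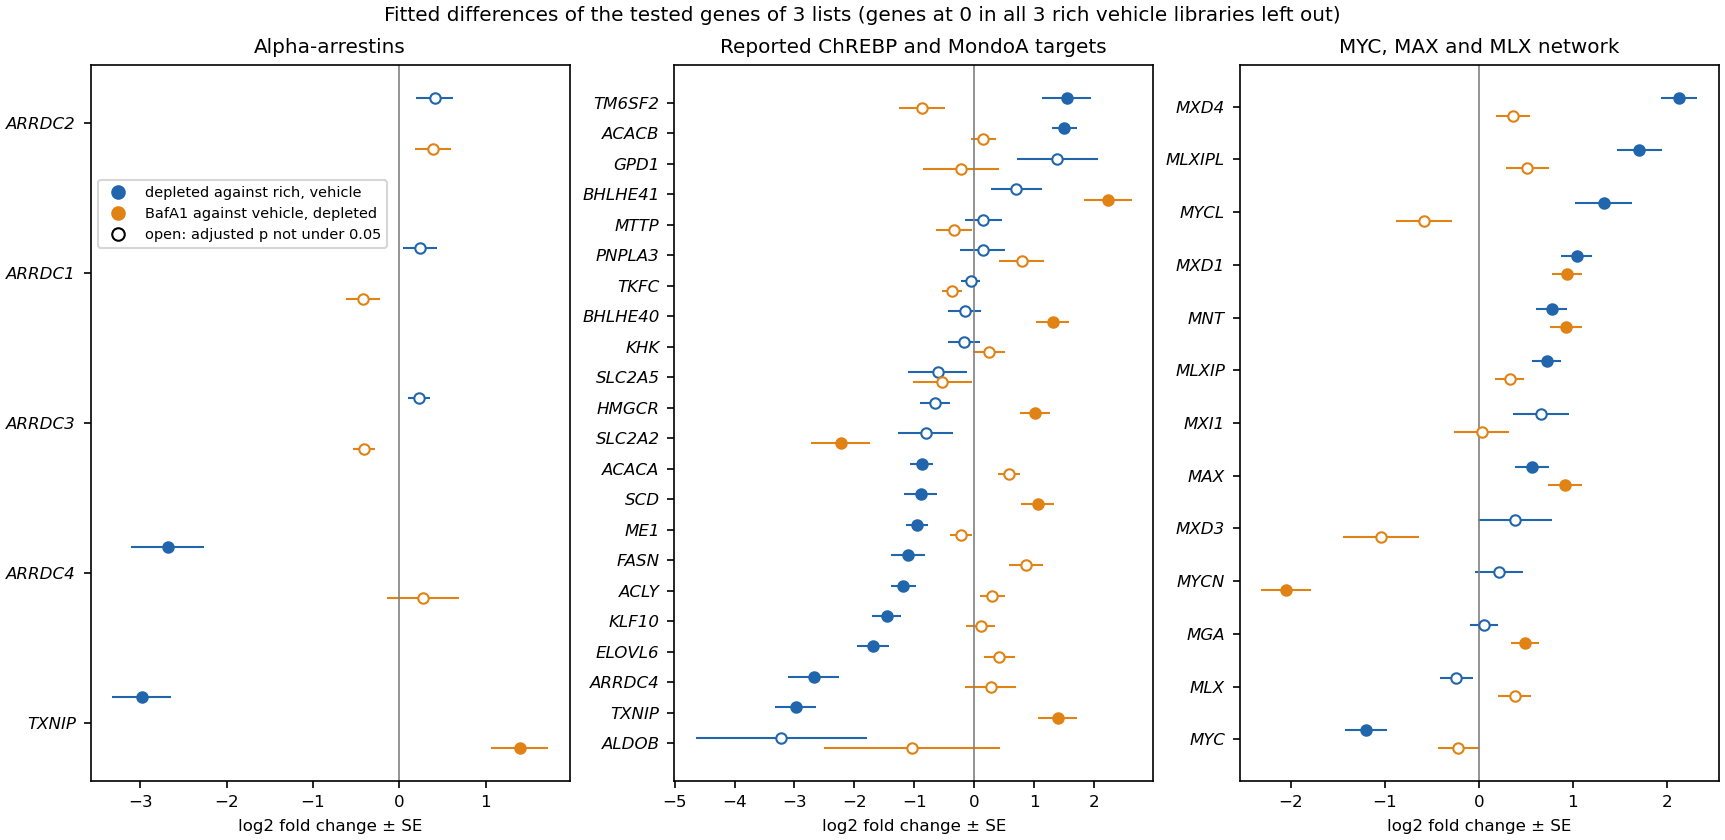
Log2 fold change ± SE of each tested α-arrestin, ChREBP or MondoA target and MYC network gene, for depletion against rich medium in vehicle (blue) and BafA1 against vehicle in depleted medium (orange), with open points where the adjusted p is not under 0.05. FGF21 is left out of the plot. TXNIP lies at -2.98 for depletion and 1.40 for BafA1, and MXD4 is the highest of its network for depletion at 2.13.

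Genes of TXNIP turnover and binding were tested last, since TXNIP protein is marked for degradation by HECT ubiquitin ligases and phosphorylated by AMPK. Of 14 tested genes, 3 rose and 3 fell under depletion with vehicle, where 15.5% of all genes rose and 15.4% fell, so the counts were near those of all genes. The ligases NEDD4L and NEDD4 rose, with log2 fold changes of 0.83 and 0.87, and KPNA2, an importin that carries TXNIP into the nucleus, fell by 1.16 and HDAC2, a histone deacetylase, by 0.94. Under BafA1 depletion raised 5 and lowered 1, but raised 2 without replicate 1 or 2 of either BafA1 group and 3 without replicate 3 of either, with NEDD4 and PRKAB2, a regulatory subunit of AMPK, both at 1.16. ITCH, the ligase first tied to TXNIP, rose by 0.52 with BafA1 in depleted medium and by 0.50 with depletion under BafA1, calls lost in 8 and 6 of the 12 fits that left out 1 library, with log2 fold changes of 0.48 to 0.55 and 0.46 to 0.52. PRKAB2 rose by 0.80 with BafA1 in depleted medium. In rich medium BafA1 lowered 2 of the 14, KPNA2 (-0.74; -0.60 with adjusted p = 0.051 without rich BafA1 replicate 3) and HDAC2 (-0.79). Without rich vehicle replicate 1 and rich BafA1 replicate 3 together 0 of the 14 fell, with HDAC2 at -0.51 (adjusted p = 0.067) and KPNA2 at -0.59 (adjusted p = 0.062). Over all genes, depletion under BafA1 raised 10.5% and lowered 13.6%, and BafA1 in rich medium lowered 4.78%. These are transcripts, and protein stability was not measured.

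The relaxed element of the TXNIP promoter was shared by 16 genes, of which 14 were tested. Under depletion with vehicle 3 of them fell and 1 rose, with a median log2 fold change of -0.06, where 15.4% of all tested genes fell and 15.5% rose. TXNIP was the strongest at -2.98, RAN, a nuclear transport GTPase, had -0.77 and KCTD5, a ubiquitin ligase adaptor, -0.56. GFPT1, the entry enzyme of hexosamine synthesis, rose with a log2 fold change of 0.62 (edgeR adjusted p = 0.0147). In depleted medium BafA1 raised 2 of the 14, GFPT1 and TXNIP, with log2 fold changes of 0.64 and 1.40, and lowered 1, RAN (-0.58). Over all tested genes 5.5% rose and 5.91% fell there. In rich medium BafA1 raised 0 and lowered 1, RAN (-0.57), where 6.15% of all genes rose and 4.78% fell. Depletion under BafA1 raised 1, GFPT1 (0.93), and lowered 3, TXNIP (-2.18), P4HA1 (-1.51) and RAN (-0.78). Over all genes 10.5% rose and 13.6% fell there.

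Across the 12 libraries TXNIP and ARRDC4 had a Pearson correlation of log2 CPM of 0.80, as a description of points that share groups and a fit. TXNIP with MLXIP gave -0.52 and ARRDC4 with MLXIP -0.84, and with MLXIPL the values were -0.32 for TXNIP and -0.70 for ARRDC4. Among 10955 genes with at least 5 CPM, those most like TXNIP included CEP85, a centrosomal protein, at 0.967, MICB, a ligand of the NKG2D receptor, at 0.963, and EBP and NSDHL, both of cholesterol synthesis, at 0.959 and 0.957. MICB averaged 9.52 CPM in depleted BafA1 cells, 6.86 CPM in depleted vehicle cells, 39.0 CPM in rich BafA1 cells and 31.6 CPM in rich vehicle cells, in the order of the TXNIP groups. EBP and NSDHL kept that order too. CEP85 did not, at 45.9 CPM in rich BafA1 cells and 48.6 CPM in rich vehicle cells. The genes were picked by correlation in these same libraries, so a shared order is no separate evidence. Those most like ARRDC4 were WRAP53, a Cajal body protein, at 0.960, RP2, a GTPase activator, at 0.950, SLC25A30, a mitochondrial carrier, at 0.942, PHLDA1 at 0.937 and KATNAL1, a katanin-like protein, at 0.936.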

How the data were processed

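RNA from 12 Caco-2 cultures was sequenced from ribosomal RNA-depleted, stranded libraries, per the labels' protocols. The submitters' processing notes name DRAGEN and GRCh38. The annotation and the strand setting of the counting were not given in the sources used here. The authors deposited, per gene and sample, estimated counts (not normalized), TPM, and a transcript length weighted by the sample's own estimate, per the file headers. Of the estimated counts 5.08% were not whole, and all were rounded. A deposited series-wide table of whole-number counts for 13518 genes was used as an alternative.

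Genes passed filterByExpr (minimum count 10, minimum total 15), and 1 model of 4 groups was fitted with edgeR 4.0.16 in R 4.3.3 (TMM scaling, robust quasi-likelihood test, 8 residual degrees of freedom). P-values were adjusted by Benjamini-Hochberg over all 18047 tested genes, and a gene was called at 0.05. CPM values are TMM-scaled. The procedure was tested on simulated data. The interaction subtracts the BafA1 log2 fold change of rich medium from that of depleted medium.

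The members, lists and tests were chosen with earlier results of these data known. Named were the 5 members, from each list and comparison up to 3 called genes with at least 1 CPM and the largest change, a fixed panel of which uncalled values are given for ARRDC2 and ARRDC3 alone, and the 5 genes most correlated with TXNIP and with ARRDC4 (log2 CPM, prior count 2). One result under this rule is not reported here. ARRDC1, GFPT1, RAN, KCTD5, P4HA1 and FGF21 were named after their values were seen. No source says that replicates came from separate experiments, so p-values measure the spread between these cultures. Promoters came from RefSeq GRCh38.p14 and gene overlaps from GENCODE. DESeq2 1.42.0, other scaling, no filter, other sets of libraries and a replicate term were tried.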

Additional observations from a re-analysis of the deposited data

Results flagged for a closer look

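The BafA1 response differed between the media, by the edgeR test of the difference itself, for 4 of the genes described. For MLXIPL, the ChREBP gene, the log2 fold change for BafA1 was 0.52 in depleted medium and 1.93 in rich medium, a difference of -1.42 (adjusted p = 0.0223). For MXD4, an E-box repressor, the difference was -1.45 and remained called in every fit that left out 1 library. For MYCN, a MYC relative, it was -2.30, with BafA1 at -2.05 in depleted medium. For SLC2A3, which encodes GLUT3, it was -1.66, a call that was lost in 10 of the 12 fits that left out 1 library (-1.88 to -1.25, adjusted p up to 0.116). Genes called in this test made up 6.18% of all tested genes.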

How the results depend on the processing

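Over the members, 442 of 470 values from the other settings kept their direction and their side of the threshold, 23 lost the call, 3 gained one and 2 changed sign. For the other named genes 1213 of 1304 did so, 81 lost the call, 8 gained one and 2 changed sign. The depletion calls with vehicle held for TXNIP (-3.13 to -2.72 without 1 library), ARRDC4 (-3.16 to -2.43), MLXIPL (1.48 to 1.82) and MLXIP (0.60 to 0.87).

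MLXIP with BafA1 in rich medium lost its call with no filter (0.52), with the 6 compared libraries alone (0.50), without rich vehicle replicate 1 and rich BafA1 replicate 3 together (0.45), and in fits without 1 library (0.44 to 0.67). TXNIP in that comparison passed with no filter (0.60) and without those libraries (0.81), and ranged from 0.30 to 0.95 without 1 library. Without 1 library, TXNIP with BafA1 in depleted medium ranged from 1.28 to 1.5, MLXIP for depletion under BafA1 from 0.48 to 0.57, ARRDC4 for that comparison from -1.66 to -1.23 and the MLXIPL interaction from -1.53 to -1.20. MLX with BafA1 in rich medium ranged from -0.14 to 0.18, with 0.01 without rich BafA1 replicate 2 and 0.18 without rich vehicle replicate 3, and the uncalled ARRDC2 interaction from -0.23 to 0.08, with 0.079 without depleted vehicle replicate 1 and 0.01 without rich vehicle replicate 1. ARRDC3 with BafA1 in depleted medium passed in 8 of the 19 settings (-0.41 to -0.40): DESeq2, the 6 libraries alone, the replicate block, the series-wide counts, without both those rich libraries and without each rich vehicle replicate.

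The number of genes called for BafA1 in depleted medium was 2058, with 4259 from the 6 libraries alone and 3444 without those rich libraries, and 878 to 3074 without 1 library. For BafA1 in rich medium it was 1971, with 2990 by DESeq2, 496 from the 6 libraries, 1010 without those libraries and 1012 to 2656 without 1. For the interaction it was 1116, with 2093 by DESeq2, 1792 with no filter and 393 to 1844 without 1 library. Without 1 library depletion called 3748 to 6075 genes with vehicle and 2346 to 5499 under BafA1.

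Replicate numbers were shared between groups, and same-numbered libraries correlated at -0.0812 to 0.294 in their deviations, with 9 of 12 libraries correlating best with their own number. Replicates 2 and 3 reached 0.231 and 0.276 for BafA1 in depleted medium, and 0.256 and 0.294 for depletion with vehicle. Whether the numbers pair the cultures is not settled, and the main fit does not use them. With a replicate block 2832 genes were called for BafA1 in rich medium, 3014 in depleted medium, 6504 and 5319 for depletion with vehicle and under BafA1, and 1969 for the interaction, and every call of a member stayed as it was.

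In deposited TPM, which is not TMM-scaled, the ratio of group means for BafA1 in depleted medium was 3.32 for TXNIP, 1.59 for MLXIP and 1.62 for MLX. For BafA1 in rich medium it was 2.46 for MLXIPL and 1.10 for MLXIP. For depletion with vehicle it was 2.05 for MLXIPL and 1.20 for MLXIP, and under BafA1 1.74 for MLXIP and 1.32 for MLX. These are the ratios that differed from those in CPM by more than the spread between libraries. The fitted folds of MLXIP were 1.43 for BafA1 in rich medium and 1.65 for depletion with vehicle. The cause was not tested. ARRDC4, with 16 to 40 reads in depleted libraries, and MLXIPL in rich vehicle libraries are limited most by depth.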
